A study of Mus musculus with 4 samples.

Results

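Vascular leptomeningeal fibroblasts of mouse motor cortex were picked out of single-nucleus RNA counts by a marker rule, which 107 of 27085 kept nuclei met. A kept nucleus had at least 500 detected genes and under 5% of its unique molecular identifiers (UMIs, the tags that count captured transcripts) from mitochondrial genes. The rule asked for UMIs of at least 3 of 8 genes (Col1a2, Col1a1, Dcn, Slc6a13, Ranbp3l, Slc7a11, Lum and Bnc2), among them Col1a2, Slc6a13 or Dcn. It also asked for at most 1 UMI over the neuron genes Slc17a7, Gad1 and Gad2, and for UMIs of fewer than 2 of Flt1 (endothelium), Mog (oligodendrocytes) and Inpp5d (microglia). The nuclei were thus chosen by their measured UMIs of these genes, so their levels of the rule genes, and of any gene against the remaining nuclei, are descriptions and carry no test.

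The study profiled nuclei of the primary motor areas of C57BL/6N mice, dissected from frozen sections of the cerebral cortex, under conditions that change the need for sleep. Each of 4 groups was 1 library. Ad lib sleep mice had no sleep deprivation, and sleep deprivation mice were kept awake by gentle handling. Mice of the AAV SIK3 WT and AAV SIK3 Ex13del groups received a local dose of AAV8-hSyn-FLAG-SIK3, in the WT or the Ex13del form. All 4 groups share the strain and the tissue, and none received a virus without SIK3. SIK3 is a salt-inducible kinase, and loss of the peptide encoded by its exon 13 is known to raise sleep need in mice. The hSyn promoter drives expression in neurons, so the fibroblasts are not the cells the virus was built to express in. Age, sex, the length of the deprivation and the number of animals in a library are not given in the sources used here.

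Leptomeningeal fibroblasts line the pia and the arachnoid and follow vessels into the cortex, where they lay down collagens, laminins and other matrix of the pial surface. They also carry solute transporters that face the cerebrospinal fluid, and they make retinoic acid, bone morphogenetic proteins (BMPs) and insulin-like growth factor 2 (IGF2). They are a main source of lipocalin-type prostaglandin D synthase, the product of Ptgds, which makes prostaglandin D2, a molecule known to promote sleep. A group of 1 library allows no test between groups, and each value below is a count or a sum of counts whose 95% Poisson, ratio or Clopper-Pearson limits cover counting error only.

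Values of the 4 libraries are given in the order ad lib sleep, sleep deprivation, AAV SIK3 WT and AAV SIK3 Ex13del. The libraries held 9438, 5944, 6978 and 6259 barcodes and 54070503, 49422196, 47662932 and 43655557 UMIs, and 9 to 16 barcodes were shared by each pair of libraries, none of them a fibroblast-rule nucleus. The rule found 31, 26, 23 and 27 nuclei. They made up 0.347% (0.236 to 0.492), 0.464% (0.304 to 0.680), 0.342% (0.217 to 0.512) and 0.464% (0.306 to 0.674) of the kept nuclei, and these limits overlap in every pair. Their median depths were 4380, 7253, 4008 and 3564 UMIs, beside 4705, 5427, 5397 and 5475 in all other kept nuclei. The sums over the nuclei of a library came to 150851, 267777, 109899 and 165650 UMIs. All levels below are UMIs per 1000000 of such a sum (CPM), where 1 UMI is worth 6.63, 3.73, 9.10 and 6.04 CPM. Of the 107 nuclei 3 held over 30000 UMIs, and the 2 in the sleep deprivation library and the 1 in the Ex13del library gave 27.7% and 28.0% of the UMIs summed there. The mitochondrial share was a median of 1.38%, 1.67%, 1.77% and 2.07% in the fibroblast-rule nuclei and 0.503%, 0.689%, 0.561% and 0.545% in the others.

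The label was first set against the genes of other cell types. Col1a2, which encodes a chain of type I collagen, had a UMI in 71.0% of fibroblast-rule nuclei (median depth 4856 UMIs), in 0.952% of 840 endothelial-class nuclei (1482 UMIs), in 1.93% of 1763 astrocyte-class nuclei (3187 UMIs) and in 5.05% of 99 pericyte-class nuclei (1456 UMIs). Cped1, which the rule did not use, had a UMI in 77.6% of them and in 2.26%, 9.76% and 33.3% of those 3 classes. Of the 8 rule genes 2 were less specific: Slc7a11 was found in 35.7% and Ranbp3l in 23.8% of astrocyte-class nuclei. Ptgds was found in 78.5% of fibroblast-rule nuclei and in 32.3% to 36.4% of the 3 other classes, beside 33.8% of all other kept nuclei. Its levels in the pericyte, endothelial and astrocyte classes of the ad lib sleep library were 302, 247 and 289 CPM, beside 93.5 CPM in all other kept nuclei, which were deeper.

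The set was also mixed. Of the 107 nuclei, 36 held many markers of a further cell type, set here at 7 or more of 10 endothelial, 6 or more of 10 pericyte, 8 or more of 10 astrocyte or 7 or more of 10 oligodendrocyte genes. These nuclei, called mixed-marker nuclei below, numbered 5, 12, 8 and 11 in the 4 libraries and supplied 23.1%, 67.5%, 34.3% and 63.5% of the summed UMIs. By type, 15 passed on endothelial genes, 11 on pericyte genes, 22 on astrocyte genes and 4 on oligodendrocyte genes. No threshold was set for microglia and macrophage genes, so nuclei with many of these can remain among those without mixed markers. No doublet caller was run, so whether they are 2 nuclei in a droplet was not tested. Of the 107 nuclei 13 entered with exactly 3 rule genes that included both Ranbp3l and Slc7a11, and 12 of these had a single UMI over Col1a2, Dcn and Slc6a13. They held a median of 4 of the 25 leading fibroblast genes described below (1 to 14) and 8 of 10 astrocyte markers. The 67 remaining nuclei with any of Slc6a13, Ranbp3l and Slc7a11 held a median of 14 leading genes (2 to 25) and 5 astrocyte markers, and the 27 with none of the 3 held 18 (8 to 25) and 3. Results below are also given without the mixed-marker nuclei where these move them.

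The 10 astrocyte markers summed to 5303, 8522, 5141 and 6085 CPM in the fibroblast-rule nuclei, beside 1402, 1440, 1395 and 1446 in other nuclei. Without the mixed-marker nuclei the sums were 4111, 5156, 4517 and 3709. Endothelial markers summed to 868, 941, 2839 and 1250 CPM, and to 586, 700, 1025 and 927 without those nuclei. Oligodendrocyte markers summed to 252, 1580, 355 and 622 CPM, and to 233, 207, 388 and 364 without them. Pericyte markers summed to 829, 792, 2202 and 845 CPM, and to 646, 517, 665 and 166 without those nuclei. Smooth muscle markers summed to 709, 116, 337 and 670 CPM, and to 224, 34.4, 55.4 and 16.6 without them. The sleep deprivation library was thus the highest in oligodendrocyte genes and the AAV SIK3 WT library in endothelial and pericyte genes, while smooth muscle genes were highest in the ad lib sleep and Ex13del libraries. Each of these 4 sums was lower without the mixed-marker nuclei in the libraries where it was highest. Endothelial, pericyte and oligodendrocyte genes themselves set which nuclei were mixed-marker, so a lower sum for them was built into that choice. The ependymal genes Foxj1, Dnah12, Cfap299 and Ccdc153 and the choroid plexus genes Folr1 and Otx2 were at 0 in all 4 libraries. Other genes of these lists had UMIs. The 6 ependymal markers summed to 0, 18.7, 9.10 and 30.2 CPM, against 68.5, 58.8, 58.9 and 54.8 in other nuclei. The 7 choroid plexus markers summed to 59.7, 74.7, 146 and 60.4 CPM, against 82.6, 184, 76.2 and 94.8, so they were above other nuclei in the AAV SIK3 WT library. The Schwann cell gene Prx was also at 0, but the 6 Schwann cell markers together summed to 232, 362, 237 and 211 CPM, against 68.7 to 89.2 CPM in other nuclei. The 10 microglia and macrophage markers summed to 583, 302, 419 and 266 CPM, against 300, 233, 269 and 272 CPM in other nuclei. Without the mixed-marker nuclei they were still at 517, 356, 416 and 182 CPM. Single fibroblast-rule nuclei held up to 8, 3, 6 and 4 of these markers. At the edge of the rule, the 57 nuclei with exactly 3 rule genes had Cped1 in 70.2%, Mgp in 64.9%, Fn1 in 56.1% and Slc47a1 in 40.4%. The 78 nuclei that met all conditions but held 2 rule genes had them in 29.5%, 39.7%, 23.1% and 12.8%, at medians of 3551 and 3449.5 UMIs.

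Genes outside the rule were ranked by the lowest of their 4 ratios to all other nuclei. Of 3246 genes with at least 50 UMIs in the fibroblast-rule nuclei, 650 (20%) were 2-fold or more higher in every library and 150 (4.62%) lower. In this comparison a listed gene counts as measured with those 50 UMIs, so genes low in these nuclei mostly drop out. The counts of measured genes in the lists below therefore lean towards high ones. Ptgds led. It reached 9771, 16671, 7270 and 6067 CPM in the fibroblast-rule nuclei and 93.5, 175, 76.0 and 88.7 CPM in the others. It was very uneven between nuclei: the single nucleus with the most Ptgds UMIs gave 56.6%, 25.4%, 16.3% and 48.2% of a library's total. Unevenness was not limited to Ptgds: for Slc47a1, described below, these shares were 15.5%, 29.0%, 46.3% and 40.9%. The plot of single nuclei gives the spread of these and other genes.

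**Figure D1:**
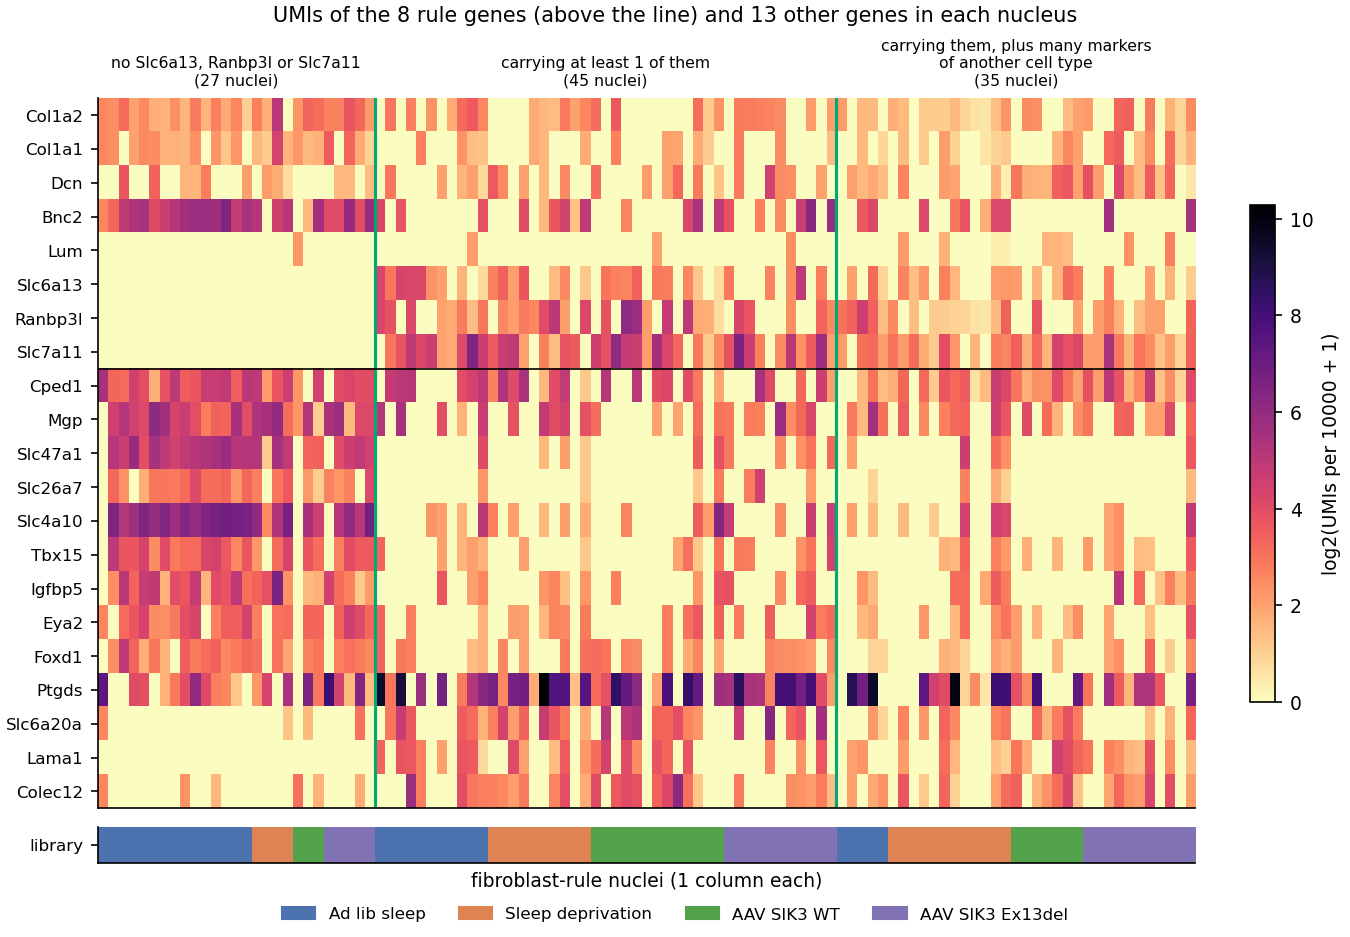
Heat map of the 107 fibroblast-rule nuclei (columns) and 21 genes (rows), with colour giving log2 of UMIs per 10000 plus 1 and the lower strip the library. The 27 nuclei at the left have no UMI of Slc6a13, Ranbp3l or Slc7a11 and carry Slc47a1, Slc26a7, Slc4a10 and Tbx15, while Slc6a20a, Lama1 and Colec12 lie mostly to the right, among the 45 nuclei with at least 1 of the 3 genes and the 35 that also hold many markers of another cell type.

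Transcription factors of the leptomeninges were among the leaders. All 15 of the 28 listed that were measured, by UMIs in these same nuclei, were 2-fold or more higher in every library, beside 20% of all genes so measured. Zic1, a zinc finger factor of the meninges, stood at 305, 288, 346 and 254 CPM, and Zic4, its neighbour in the genome, at 179, 243, 382 and 284 CPM. Neither was particular to these nuclei. In pericyte-class nuclei Zic1 stood at 114, 433, 134 and 366 CPM, above the fibroblast-rule nuclei in the sleep deprivation and Ex13del libraries. Zic4 stood at 49.0, 167, 134 and 200 CPM in that class. Tbx15, a T-box factor of mesenchyme, stood at 630, 329, 282 and 652 CPM against 2.85 to 4.0 CPM in other nuclei. Tbx15 and Foxd1, a forkhead factor of stromal cells at 391, 198, 237 and 350 CPM, were each lower in the sleep deprivation and AAV SIK3 WT libraries than in the other 2, whereas Zic1 varied little. Eya2 (570, 351, 428 and 730 CPM) and Prdm6 (259, 246, 227 and 459 CPM) were also in the top 25. Tbx15, Foxd1, Eya2 and Prdm6 were each lower in the pericyte class than in fibroblast-rule nuclei in every library. Foxp1 and Foxp2, which many cortical neurons use as well, reached 1802 to 2751 CPM and 810 to 1604 CPM.

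Matrix genes formed the broadest group. All 14 measured matrix glycoproteins and proteoglycans (of 39 listed), 8 of 9 collagens (of 23), 11 of 13 matrix processing genes (of 34) and 6 of 10 basement membrane genes (of 20) were 2-fold or more higher in every library. Mgp, the matrix Gla protein that restrains calcification, stood at 1909, 1329, 500 and 996 CPM and was lowest in the AAV SIK3 WT library. Cped1 stood at 1518, 1229, 728 and 1165 CPM, and Fn1, the gene of fibronectin, at 464, 527, 409 and 646 CPM. Fn1 was therefore spread far less between the libraries than Mgp. Fn1 was not particular to these nuclei. In endothelial-class nuclei it stood at 227, 333, 423 and 386 CPM, above the fibroblast-rule nuclei in the AAV SIK3 WT library. Adam12, a membrane metalloprotease, stood at 418, 721, 646 and 797 CPM. Lama1, which encodes the laminin chain typical of the pial basement membrane, stood at 159, 138, 446 and 211 CPM against 1.70 to 1.95 CPM in other nuclei.

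Transporters followed, with 17 of 20 measured solute carriers and efflux pumps (of 32 listed) higher in every library. Slc47a1 (chr11:61343401-61378345, minus strand), which encodes the proton-coupled organic cation extruder MATE1, stood at 1883, 695, 373 and 797 CPM against 1.16 to 3.64 CPM elsewhere. Slc26a2, a sulphate carrier that feeds proteoglycan synthesis, stood at 782, 344, 400 and 712 CPM, and Slc6a20a, a carrier of proline and other imino acids, at 172, 381, 519 and 531 CPM. Slc47a1 and Slc26a2 were highest and Slc6a20a was lowest in the ad lib sleep library. Of the rule's own transporters, Slc6a13, the GABA and taurine carrier GAT2, stood at 179, 198, 227 and 139 CPM. Slc7a11, the cystine and glutamate exchanger, stood at 855, 415, 946 and 791 CPM.

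Secreted signals of the pia were present as well. Bmp6 stood at 298, 407, 510 and 646 CPM and Bmp5 at 358, 157, 182 and 175 CPM, both BMP ligands. Igf2 stood at 199, 355, 309 and 235 CPM, and 5 of 7 measured genes of the IGF axis (Igf2, Igfbp2, Igfbp5, Igfbp7 and Igfbp6) were higher in every library. Aldh1a2, the enzyme that makes retinoic acid, stood at 79.6, 85.9, 164 and 127 CPM. The WNT potentiator Rspo3 stood at 464, 467, 382 and 525 CPM and was among the steadiest of the signals. Of 6 measured arachnoid barrier genes 5 were higher in every library (Ptgds, Cdh1, Abcg2, Cldn11 and Dpp4), while the epithelial keratins Krt8 and Krt18 and the desmosome gene Dsp had no UMI. None of the 10 measured genes of the SIK pathway list was 2-fold or more higher in every library.

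**Figure D2:**
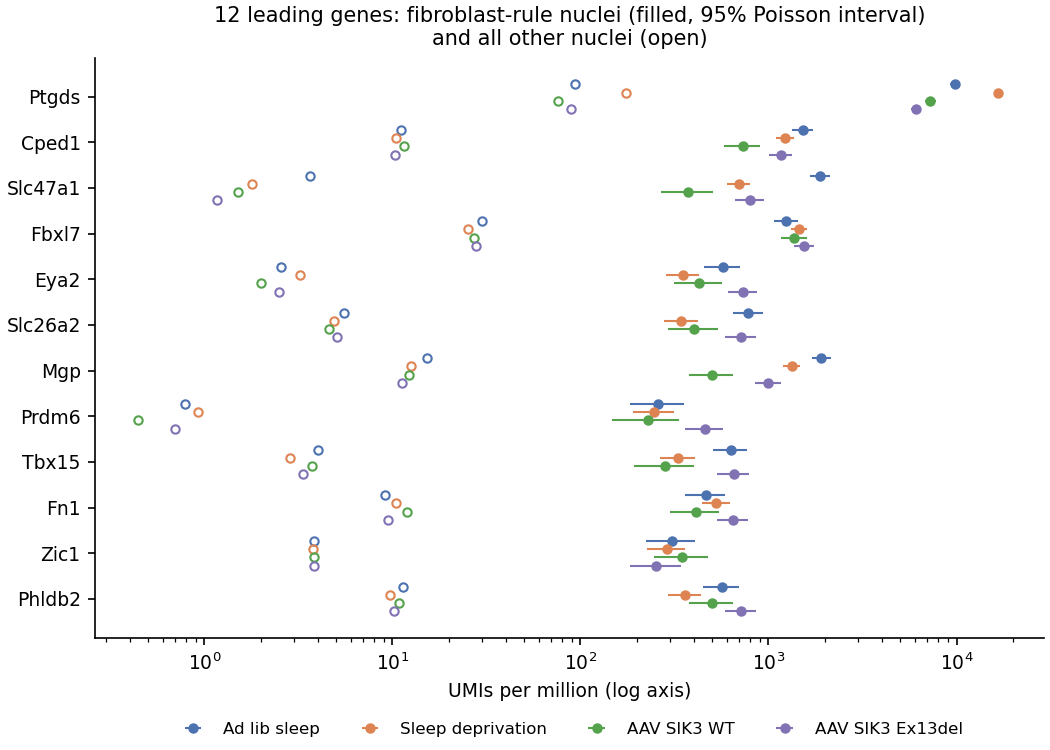
Level of 12 leading fibroblast genes in the 4 libraries (CPM, log scale; filled points are fibroblast-rule nuclei with 95% Poisson limits, open points all other kept nuclei of each library). The fibroblast-rule nuclei lie above the others for each gene shown, for example at 1883, 695, 373 and 797 against 3.64 or less for Slc47a1.

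The 107 nuclei were split into 2 kinds, after their values were seen, by 3 of the rule genes. In 80 nuclei at least 1 UMI of Slc6a13, Ranbp3l or Slc7a11 was found, and 27 nuclei held none of the 3. They are called trio-positive and trio-negative nuclei here, and no cell type name is given to either. The split cannot be read for the rule genes: a nucleus with none of the trio had to hold 3 of Col1a2, Col1a1, Dcn, Lum and Bnc2 to enter. For the same reason genes whose levels go with the rule genes can differ between the kinds, to an extent that was not tested. The split is also not sharp, since 1 UMI of the trio sufficed. A sleep deprivation nucleus was trio-positive by 1 Ranbp3l UMI and held 26 UMIs of Slc47a1, a gene higher in trio-negative nuclei as given below. Of the 27 trio-negative nuclei 1 was a mixed-marker nucleus. Of the trio-positive nuclei 35 were mixed-marker nuclei and 45 were not. Of the 3246 genes with at least 50 UMIs, 228 (7.02%) were 2-fold or more higher and 407 (12.5%) lower in the trio-negative nuclei. The genes named next were chosen after their values were seen, among the transporters, matrix genes and signals that differed most and those that differed little.

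Slc47a1, Slc47a2, Slc26a7, Slc4a10 and Slc38a2 were higher in trio-negative nuclei, while other solute carriers, such as Slc6a20a and the dicarboxylate carrier Slc13a3 (9.66 times), were higher in trio-positive nuclei. Pooled over libraries, Slc47a1 stood at 2764 CPM in them and at 353 CPM in trio-positive nuclei, a ratio of 7.82 (6.58 to 9.32), and was found in 24 of 27 and 16 of 80 nuclei. By library it was at 3544, 2750, 794 and 2085 CPM in trio-negative and 298, 322, 293 and 481 CPM in trio-positive nuclei, so the values of the 2 kinds did not overlap. Its paralogue and neighbour Slc47a2 showed the same split, with 100 UMIs in trio-negative and 12 in trio-positive nuclei (606 against 22.7 CPM, ratio 26.7, 14.6 to 53.5). Its UMIs in trio-negative nuclei were at 611, 828, 0 and 644 CPM, and the 0 stands for 3 nuclei of the AAV SIK3 WT library. Slc26a7, an anion exchanger, was found in 22 of 27 and 12 of 80 nuclei. Slc4a10, a sodium-driven bicarbonate exchanger, reached 6650 against 973 CPM (ratio 6.83, 6.15 to 7.60), and Slc38a2, a carrier of small neutral amino acids, 5207 against 1187 CPM (4.39, 3.95 to 4.87).

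Some signals and regulators were also higher in trio-negative nuclei when pooled over libraries. Slit2, an axon guidance ligand, stood at 2109 against 340 CPM (6.20, 5.17 to 7.47), and Igfbp5, an IGF binding protein, at 1643 against 370 CPM (4.44, 3.68 to 5.36). By library Igfbp5 was at 1521, 3408, 170 and 491 CPM in trio-negative and 220, 401, 238 and 496 CPM in trio-positive nuclei. It was thus not higher in trio-negative nuclei of the AAV libraries. A single sleep deprivation nucleus held 117 of its 271 trio-negative UMIs. Penk, the precursor of enkephalins, had 67 UMIs in 13 trio-negative and 11 UMIs in 9 trio-positive nuclei, and in trio-negative nuclei it stood at 801 CPM in the ad lib sleep library and at 56.7 to 123 CPM in the other 3. Ecrg4 was led by sleep deprivation, at 1728 CPM against 30.7 to 326 in the others, so both genes were uneven among trio-negative nuclei. Tbx15 stood at 1181, 949, 794 and 1012 CPM in trio-negative and 104, 216, 184 and 564 CPM in trio-positive nuclei (pooled ratio 3.72, 2.97 to 4.67), again without overlap. Nr3c2, the mineralocorticoid receptor, was at 2109 against 661 CPM (3.19, 2.74 to 3.71).

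Ptgds, Lama1, Slc6a20a, Colec12, Cemip and Aldh1a2 were higher in trio-positive nuclei. Ptgds stood at 13911 against 2303 CPM (6.04 times as high, 5.45 to 6.71), and at 17760, 19335, 8041 and 6509 CPM in trio-positive against 1398, 1972, 3235 and 4262 CPM in trio-negative nuclei. The difference was wide in the first pair of libraries and narrow in the AAV libraries. Lama1 had 145 UMIs in 43 of 80 trio-positive nuclei and none in the 27 trio-negative nuclei, where 3 UMIs would be 18.2 CPM. Its level in trio-positive nuclei was 311, 163, 531 and 263 CPM, so it was present in every library. Slc6a20a (497 against 60.6 CPM, 8.20 times, 4.39 to 17.3), the scavenger receptor Colec12 (463 against 60.6 CPM, 7.64 times), the hyaluronan depolymerising Cemip (527 against 18.2 CPM, 29.0 times, 9.82 to 141) and Aldh1a2 (136 against 12.1 CPM, 11.2 times, 3.0 to 94.4) split in the same direction. All 4 were higher still in the 45 trio-positive nuclei without mixed markers, at 755, 600, 727 and 213 CPM, and Lama1 was at 369 CPM there. Colec12 was not particular to trio-positive nuclei, since pericyte-class nuclei stood at 278, 1000, 419 and 699 CPM in the 4 libraries.

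Astrocyte genes moved with the same split. Slc1a3, a glutamate transporter of astrocytes, stood at 830 CPM in trio-positive nuclei, at 882 CPM in those without mixed markers and at 36.4 CPM in trio-negative nuclei. Gpc5, a glypican of astrocytes, had 1034 UMIs in 38 of 80 and 1 UMI in 1 of 27. Their part in the difference between the 2 kinds was not tested. Ranbp3l and Slc7a11, which define the split with Slc6a13, were themselves found in astrocyte-class nuclei. Genes at much the same level in both kinds were Zic1 (340 against 278 CPM, ratio 1.22, 0.882 to 1.67), Zic4 (309 against 246 CPM, 1.26, 0.892 to 1.75) and Fn1 (570 against 508 CPM, 1.12, 0.877 to 1.42), whose limits all include equal levels.

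The share of the 2 kinds was uneven between libraries. Trio-negative nuclei numbered 15, 4, 3 and 5, which is 48.4% (30.2 to 66.9), 15.4% (4.36 to 34.9), 13% (2.78 to 33.6) and 18.5% (6.30 to 38.1) of the fibroblast-rule nuclei. Of all kept nuclei they were 0.168%, 0.0714%, 0.0446% and 0.0859%. The ad lib sleep library was the highest on both scales, and its limits overlap those of the other 3 libraries. How much pial surface each dissection took in is not given in the sources used here. Trio-negative nuclei gave 48.8%, 15.3%, 16.0% and 19.7% of the UMIs summed per library. Any comparison with the ad lib sleep library therefore also compares different mixtures, and values within a kind are given beside it for some of the genes.

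**Figure D3:**
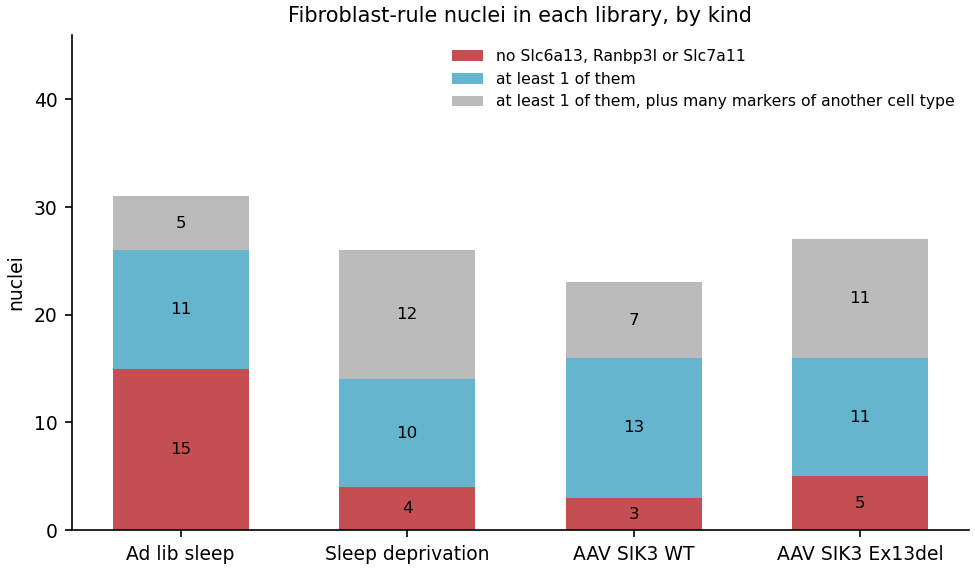
Number of fibroblast-rule nuclei in each library (stacked bars), split into nuclei without Slc6a13, Ranbp3l and Slc7a11, nuclei with at least 1 of them, and the latter with many markers of another cell type. Ad lib sleep has 15 of the 27 trio-negative nuclei, and sleep deprivation and AAV SIK3 Ex13del have the most nuclei with markers of another type, 12 and 11.

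Promoter windows are shown for a few genes on which the split and the later comparisons turn. Of 22 genes looked up, 15 had an entry in the RefSeq promoter table (build GRCm38.p6), and Slc47a1, Slc26a7, Tbx15, Col1a1, Lama1, Colec12 and Zbtb16 had none. Each line gives the 250 bases before the annotated start, 5′ to 3′ on the gene's strand, with capitals for a match to a searched motif. Slc47a2 and Igfbp5 stand for genes higher in trio-negative nuclei pooled over libraries, and Slc6a13 and Slc7a11 for the trio that defines the kinds. Ptgds stands for the most abundant transcript, and Fkbp5 and Klf9 for the glucocorticoid response.
Slc47a2, chr11:61342861-61343110, minus strand: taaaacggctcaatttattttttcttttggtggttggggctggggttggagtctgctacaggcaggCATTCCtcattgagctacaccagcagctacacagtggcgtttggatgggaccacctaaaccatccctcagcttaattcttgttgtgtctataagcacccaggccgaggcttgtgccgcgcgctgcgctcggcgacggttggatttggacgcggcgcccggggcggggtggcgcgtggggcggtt
Igfbp5, chr1:72874866-72875115, minus strand: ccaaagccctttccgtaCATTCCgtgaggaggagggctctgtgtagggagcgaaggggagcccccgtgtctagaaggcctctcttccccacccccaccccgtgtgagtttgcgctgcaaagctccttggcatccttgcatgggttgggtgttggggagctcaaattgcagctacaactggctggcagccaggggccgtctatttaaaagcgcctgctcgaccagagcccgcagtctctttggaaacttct
Slc6a13, chr6:121300038-121300287, plus strand: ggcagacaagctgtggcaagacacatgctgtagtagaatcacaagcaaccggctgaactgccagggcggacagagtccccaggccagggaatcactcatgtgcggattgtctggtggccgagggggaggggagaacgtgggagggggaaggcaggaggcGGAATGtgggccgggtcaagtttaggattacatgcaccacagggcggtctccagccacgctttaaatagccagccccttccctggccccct
Slc7a11, chr3:50443614-50443863, minus strand: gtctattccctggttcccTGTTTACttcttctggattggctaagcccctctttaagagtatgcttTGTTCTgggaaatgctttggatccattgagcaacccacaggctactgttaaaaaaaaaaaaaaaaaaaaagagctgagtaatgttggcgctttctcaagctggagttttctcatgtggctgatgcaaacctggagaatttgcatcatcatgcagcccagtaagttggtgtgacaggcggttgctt
Ptgds, chr2:25469750-25469999, minus strand: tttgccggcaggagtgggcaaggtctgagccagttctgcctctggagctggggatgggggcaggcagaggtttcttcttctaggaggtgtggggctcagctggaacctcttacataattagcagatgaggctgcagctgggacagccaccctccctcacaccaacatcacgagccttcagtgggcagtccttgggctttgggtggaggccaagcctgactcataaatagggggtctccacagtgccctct
Fkbp5, chr17:28486150-28486399, minus strand: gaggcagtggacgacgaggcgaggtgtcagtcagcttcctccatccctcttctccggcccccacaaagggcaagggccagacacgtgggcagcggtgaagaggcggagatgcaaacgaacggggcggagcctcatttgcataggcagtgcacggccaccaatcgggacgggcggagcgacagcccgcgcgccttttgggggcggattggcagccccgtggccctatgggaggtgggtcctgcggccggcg
Klf9, chr19:23140976-23141225, plus strand: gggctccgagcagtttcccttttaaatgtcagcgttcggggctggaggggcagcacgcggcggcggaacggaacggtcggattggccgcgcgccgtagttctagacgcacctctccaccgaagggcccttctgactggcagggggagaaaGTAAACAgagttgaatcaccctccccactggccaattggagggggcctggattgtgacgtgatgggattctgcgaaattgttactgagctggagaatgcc
The Slc47a2 window lies 290 bases from the end of Slc47a1, so the pair of transporter genes that marks the trio-negative nuclei is adjacent.

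Of the motifs searched on both strands, which do not overlap, the forkhead core TGTTTAC (or GTAAACA) occurs in 3.17% of 32851 such windows, the glucocorticoid receptor element's 6-base core AGAACA (or TGTTCT) in 16.1%, the TEAD core GGAATG (or CATTCC) in 12.6% and the TATA box TATAAA (or TTTATA) in 12.4%. Slc47a2 and Igfbp5 hold the TEAD core 184 and 233 bases before the start, and the first of 3 Slc6a13 windows holds it 91 bases before. Slc7a11 holds the forkhead core 232 and the receptor core 185 bases before the start, and Klf9 the forkhead core 100 bases before. The Ptgds and Fkbp5 windows hold none of the 4, which says only that these letters are absent from these bases. A match is a description of the sequence, and binding was not measured.

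The sleep deprivation library was compared with the ad lib sleep library to ask how sleep loss relates to the state of these nuclei. Glucocorticoid response genes and cytosolic heat shock genes were mostly higher after deprivation. Transcription factors were mostly lower over all nuclei, as were Slc47a1, Slc4a10 and Slc38a2. Within trio-positive nuclei Slc47a1 and Slc4a10 were lower or higher depending on whether mixed-marker nuclei were counted. The lower ratios rest largely on 1 ad lib sleep nucleus, and the higher ones largely on a few mixed-marker sleep deprivation nuclei. Of 4746 genes with at least 20 UMIs over both libraries, 359 (7.56%) were 2-fold or more higher and 242 (5.1%) lower, on the scale log2((CPM + 10)/(CPM + 10)), the shares higher and lower by any size were 49.5% and 50.5%, and the median over all genes was -0.01. With single libraries these counts show differences between 2 libraries and not between conditions.

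The transcription factors were lower in 12 of 16 measured genes, with a median of -0.61 and 1 past 2-fold. Among trio-positive nuclei the median was 0.38, and over both kinds without the mixed-marker nuclei it was -0.19. Slc47a1 stood at 0.369 (0.305 to 0.445) of its ad lib sleep level over all nuclei, at 1.08 (0.668 to 1.81) in trio-positive and at 0.776 (0.617 to 0.971) in trio-negative nuclei. In trio-positive nuclei without mixed markers it was at 0.167 (0.0419 to 0.493), from 22 and 4 UMIs (519 and 86.9 CPM). All 22 ad lib sleep UMIs came from 1 of 11 nuclei. Tbx15 (0.522), Slc4a10 (0.350) and Slc38a2 (0.455) were likewise lower over all nuclei. Among trio-positive nuclei their log2 ratios were 0.99, 0.29 and -0.10. In the sleep deprivation library much of this came from mixed-marker nuclei of 11296, 41709 and 32393 UMIs. They held 10, 15 and 18 of the 49 Tbx15 UMIs and 24, 74 and 69 of the 176 Slc4a10 UMIs of trio-positive nuclei. Of the 73 Slc47a1 UMIs there they held 26, 18 and 25. Without mixed markers the trio-positive ratios were 0.230 (0.0238 to 1.15, from 8 and 2 UMIs) for Tbx15, 0.140 (0.0534 to 0.312) for Slc4a10 and 0.779 (0.534 to 1.13) for Slc38a2. The ad lib sleep nucleus with the 22 Slc47a1 UMIs also held 43 of the 46 Slc4a10 UMIs. The Slc47a1 and Slc4a10 ratios without mixed markers thus rest on 1 nucleus, which their limits do not cover. Trio-negative nuclei stood at 0.804 (0.536 to 1.19), 0.686 (0.587 to 0.799) and 0.771 (0.650 to 0.912), so each of the 3 was lower in that kind too, for Tbx15 within counting error. The 3 genes were higher in trio-negative nuclei, whose share differed between the libraries.

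Ptgds was 1.71 (1.61 to 1.81) times as high in the sleep deprivation library over all nuclei and 1.09 (1.02 to 1.16) times in trio-positive nuclei. In the trio-positive nuclei without mixed markers it stood at 7955, 24432, 8888 and 10795 CPM, and the sleep deprivation to ad lib sleep ratio was 3.07 (2.72 to 3.48). In trio-negative nuclei the ratio was 1.41 (1.04 to 1.90). These values lean on single nuclei. Among trio-positive nuclei without mixed markers 1 sleep deprivation nucleus held 644 of the 1124 Ptgds UMIs, and without it the level was 11751 CPM and the ratio 1.48 (1.28 to 1.70). Without the nucleus with the most Ptgds UMIs in each library, the ratio was 3.22 (2.96 to 3.51) over all nuclei, 2.16 (1.97 to 2.37) in trio-positive nuclei, 1.44 (1.23 to 1.69) in those without mixed markers and 0.700 (0.398 to 1.18) in trio-negative nuclei. The direction thus turned in trio-negative nuclei, and the size moved in every group of nuclei. Of the other signals, Igf2 was at 1.78 (1.17 to 2.79) times and Adam12 at 1.73 (1.29 to 2.33) times the ad lib sleep level. In trio-negative nuclei the log2 ratio of Igf2 was -0.81.

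Matrix groups differed little. Of 19 measured glycoproteins and proteoglycans 12 were higher, with 2 past 2-fold higher and 1 lower and a median of 0.23. For 10 collagens the median was -0.15, with 3 higher and 2 past 2-fold lower, and it was 1.01 among trio-positive nuclei. For 11 basement membrane genes it was 0.12, with 6 higher, and for 15 matrix processing genes 0.25, with 8 higher. BMP and TGF-beta genes were lower in 17 of 23, with a median of -0.49 that became 0.00 among trio-positive nuclei. Among these groups only the collagens thus moved by 1 log2 unit or more with the choice of nuclei.

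Cytosolic heat shock genes were higher in 11 of 13, with 3 past 2-fold and a median of 0.55, which was 0.21 among trio-positive nuclei and 0.96 without the mixed-marker nuclei. Hspa8, the constitutive HSP70 chaperone, stood at 1.71 (1.23 to 2.42) times and Hsp90ab1, a constitutive HSP90, at 1.66 (1.22 to 2.29) times the ad lib sleep level. Clock genes were lower in 8 of 11 (median -0.34). Dbp, an output gene of the clock, had 24, 11, 9 and 6 UMIs in the 4 libraries, and its ratio was 0.258 (0.114 to 0.548). The collection times are not given in the sources used here.

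Genes of oligodendrocytes were among the highest ratios and came from few nuclei. Of 10 oligodendrocyte markers 6 were measured, all 6 were higher and 5 were past 2-fold (median 2.90). Mbp, the gene of myelin basic protein, was 9.80 times as high, and 80.5% of its UMIs in the sleep deprivation library came from 1 nucleus. St18, Nkain2 and Nfasc, which were among the 5 highest ratios, took 100%, 84.5% and 81.8% of theirs from 1 nucleus. Without the mixed-marker nuclei the log2 ratio of Mbp was 0.60. At the low end Penk had 59 UMIs in the ad lib sleep and 8 in the sleep deprivation library (ratio 0.0764), and Acta2 took 77.6% of its ad lib sleep UMIs from 1 nucleus.

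Glucocorticoid response genes were followed gene by gene, since corticosterone is known to increase when rodents are kept awake. Of 23 listed genes 12 were measured between the sleep deprivation and ad lib sleep libraries, and 9 were higher, 2 past 2-fold higher and 1 past 2-fold lower, with a median of 0.65. Of all genes, 49.5% were higher and 7.56% were past 2-fold higher. Among trio-positive nuclei all 9 measured were higher, with a median of 0.75, where 51.9% of all genes were higher and 10.1% past 2-fold higher. The median was 0.40 without the mixed-marker nuclei, 0.30 without nuclei above 30000 UMIs and 0.12 in trio-negative nuclei. It was -0.22 when each nucleus was thinned to 1000 UMIs and -0.58 in nuclei with no UMI of the 6 exclusion genes.

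Fkbp5 (chr17:28399094-28517527, minus strand), a cochaperone that restrains the glucocorticoid receptor and is induced by it, had 33, 111, 64 and 113 UMIs, or 219, 415, 582 and 682 CPM. The other nuclei stood at 22.9, 59.6, 39.9 and 45.0 CPM, so ad lib sleep was the lowest library in both. The sleep deprivation to ad lib sleep ratio was 1.89 (1.27 to 2.89). In trio-positive nuclei Fkbp5 stood at 77.7, 432, 564 and 586 CPM, from 6, 98, 52 and 78 UMIs in 3 of 16, 11 of 22, 11 of 20 and 13 of 22 nuclei, and the ratio was 5.56 (2.47 to 15.5). Few nuclei gave much of this: 2 sleep deprivation nuclei held 28 and 27 UMIs, 2 WT nuclei 16 and 15, and 1 Ex13del nucleus 51. The ad lib sleep library stood far below the 3 others in trio-positive nuclei, and still did without mixed markers, at 94.4, 391, 803 and 792 CPM (ratio 4.14, 1.36 to 16.8). In trio-negative nuclei the order was another one, with 367, 316, 681 and 1073 CPM and a ratio of 0.863 (0.409 to 1.73). A difference of the 2 ratios was not tested.

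Zbtb16, a zinc finger factor that glucocorticoids induce, had 19, 104, 39 and 71 UMIs, or 126, 388, 355 and 429 CPM. The other nuclei had 114, 176, 162 and 166 CPM, again lowest in ad lib sleep. The sleep deprivation to ad lib sleep ratio was 3.08 (1.88 to 5.33). In trio-positive nuclei there were 1, 81, 35 and 53 UMIs, found in 1 of 16, 17 of 22, 10 of 20 and 11 of 22 nuclei. Of these, 1 nucleus each held 28 in the sleep deprivation, 22 in the WT and 27 in the Ex13del library. The ratio in trio-positive nuclei was 27.6 (4.81 to 1103), with 1 UMI in the denominator. Without mixed markers the trio-positive nuclei had 0, 7, 27 and 7 UMIs, too few in the first pair of libraries for a size. In trio-negative nuclei it was at 244, 560, 227 and 552 CPM, 2.29 (1.18 to 4.50) times as high in the sleep deprivation library.

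Other members of the list varied in both directions. Mt1, a metallothionein, stood at 345, 564, 291 and 441 CPM, and was 1.64 (1.19 to 2.29) times as high in the sleep deprivation library. Within trio-positive and trio-negative nuclei Mt1 was at 1.39 (0.951 to 2.09) and 1.20 (0.525 to 2.62), each within counting error. Klf9, a Krüppel-like factor, stood at 358, 433, 173 and 332 CPM (1.21, 0.869 to 1.70), a difference within counting error. Tsc22d3, which encodes the leucine zipper protein GILZ, stood at 391, 295, 182 and 229 CPM with a ratio of 0.754 (0.532 to 1.08), within counting error. It was at 638, 438, 56.7 and 399 CPM in trio-negative and 155, 269, 206 and 188 CPM in trio-positive nuclei, where the ratio was 1.73 (0.923 to 3.53). Errfi1 (92.8, 37.3, 45.5 and 54.3 CPM) was the gene past 2-fold lower, Hif3a (13.3, 85.9, 63.7 and 30.2 CPM) rested on 2 ad lib sleep UMIs, and Mt2 and Sult1a1 were at 59.7, 105, 54.6 and 109 and at 46.4, 85.9, 27.3 and 54.3 CPM. Nr3c1, the glucocorticoid receptor itself, was level at 225, 217, 237 and 223 CPM, and Nr3c2 stood at 1432, 863, 1092 and 791 CPM.

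The response list was also higher in other classes of nuclei of the sleep deprivation library, with medians of 0.62 in endothelial-class nuclei (13 of 14 genes higher), 0.74 in astrocyte-class nuclei (17 of 19) and 0.28 in all other nuclei (21 of 22). Of all genes measured in these 3 classes, 49.8%, 49.3% and 39.8% were higher. The fibroblast-rule value of 0.65 lay within that range, and a difference from the other classes was not tested.

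**Figure D4:**
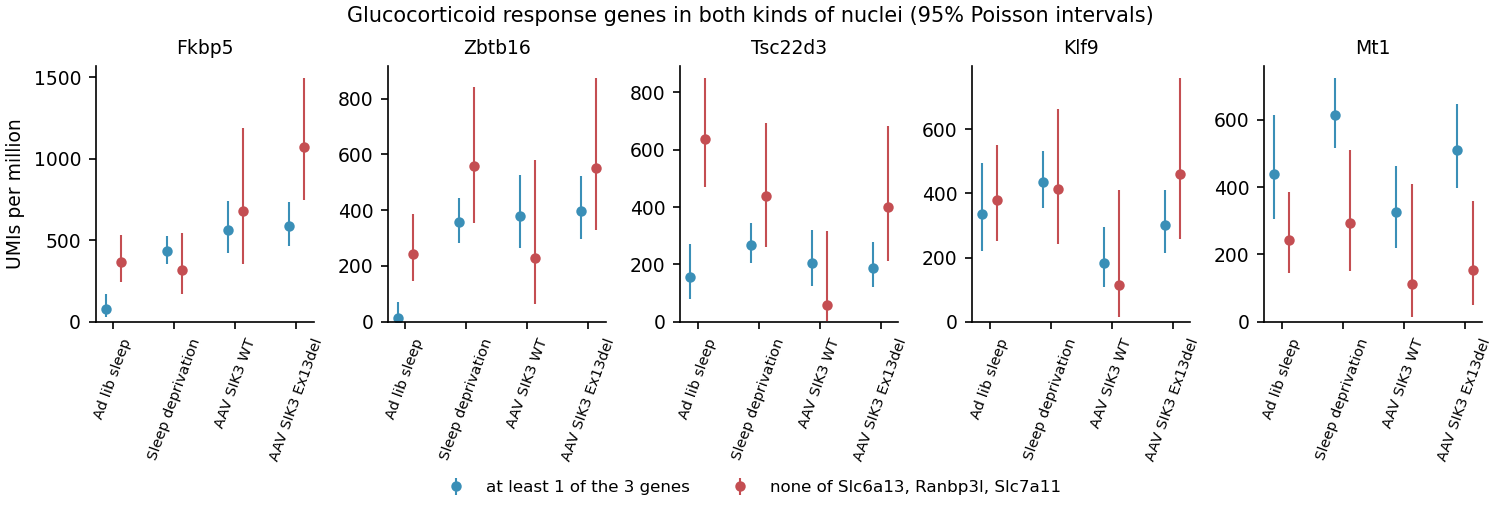
Level of 5 glucocorticoid response genes (CPM, linear scale) in trio-positive and trio-negative nuclei of each library, as points with 95% Poisson limits. Fkbp5 and Zbtb16 are lowest in the trio-positive nuclei of the ad lib sleep library, at 77.7 and 13 CPM, while Tsc22d3 is highest in its trio-negative nuclei, at 638 CPM.

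The 2 AAV libraries were compared to ask what the Ex13del form of SIK3 adds to WT SIK3 in neurons of the same tissue. Matrix processing genes (10 of 13), Slc47a1, Tbx15 and Mgp were higher in the Ex13del library over all nuclei, and 7 of 9 endothelial markers were lower. Of 3384 genes with at least 20 UMIs, 198 (5.85%) were 2-fold or more higher and 148 (4.37%) lower, 51.1% and 48.9% were higher and lower by any size, and the median over all genes was 0.03. Of the vector's WPRE sequence there were 0, 0, 4 and 5 UMIs in the fibroblast-rule nuclei, or 36.4 and 30.2 CPM in the AAV libraries, below the 71.5 and 116 CPM in all other nuclei. Sik3 itself stood at 272, 474, 282 and 362 CPM in the 4 libraries, beside 206, 250, 250 and 264 CPM in other nuclei, and the Ex13del to WT ratio of 1.28 (0.819 to 2.05) was within counting error. Whether the counted Sik3 reads include the vector's coding sequence is not given in the sources used here.

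Of 15 measured transcription factors 11 were higher in the Ex13del library, with 1 past 2-fold each way and a median of 0.38. It was 0.30 among trio-positive nuclei and 0.38 without the mixed-marker nuclei. Tbx15 was 2.31 (1.54 to 3.57) times as high, and 48.1% of its Ex13del UMIs came from 1 nucleus. Its log2 ratio was 1.18 over all nuclei, 1.56 in trio-positive and 0.35 in trio-negative nuclei, and 0.71 without nuclei above 30000 UMIs. Eya2 was 1.71 (1.21 to 2.45) times as high, a log2 ratio of 0.76 that was 0.18 without those nuclei. Bnc2, a rule gene, was 2.17 (1.77 to 2.67) times as high. The direction held in each of these groups, and the size depended on the deepest nuclei.

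Slc47a1 was 2.14 (1.49 to 3.11) times as high, at 1.64 (1.03 to 2.68) in trio-positive and 2.62 (1.46 to 5.05) in trio-negative nuclei. Of its 64 Ex13del UMIs in trio-positive nuclei 54 came from 1 mixed-marker nucleus of 46342 UMIs, and the 27 WT UMIs came from 2 nuclei. The trio-positive ratio thus rests on few nuclei, which its limits do not cover. In trio-positive nuclei without mixed markers it was at 0.763 (0.330 to 1.63), 360 against 471 CPM, so the direction turned there, within counting error. Mgp was 1.99 (1.46 to 2.75) times as high, with log2 ratios of 0.92, 1.51 and 0.86 in trio-positive nuclei, without mixed markers and in trio-negative nuclei, and 1.04 without nuclei above 30000 UMIs. Mgp was thus higher in each of these groups of nuclei. Igfbp5 was 2.18 (1.38 to 3.56) times as high, but at 0.749 (0.288 to 1.75) in trio-positive nuclei without mixed markers. Cped1 was 1.60 (1.23 to 2.10) times as high, whereas Lama1 was at 0.474 (0.298 to 0.746) of the WT level.

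Of 13 measured matrix processing genes 10 were higher and 3 were past 2-fold higher, with a median of 0.60 that was 0.46 among trio-positive nuclei and 0.77 without mixed markers. Mmp16, a membrane metalloprotease, was 6.63 (2.66 to 21.3) times as high, with 52% of its Ex13del UMIs from 1 nucleus. Slit3, a guidance ligand, was 5.90 (2.96 to 13.4) times and Trabd2b, a metalloprotease that acts on WNT proteins, 5.12 (2.92 to 9.67) times as high, with 38.8% and 53.7% from 1 nucleus. These 3 were among the 5 highest ratios, and their size rests on a single nucleus to that extent. Collagens (median -0.22, 2 of 9 higher), basement membrane genes (-0.33, 4 of 11) and matrix glycoproteins (-0.15, 6 of 14) were lower on balance. The collagen median was 0.39 among trio-positive nuclei and -0.56 without mixed markers, so its sign depended on the nuclei.

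Of 7 measured glucocorticoid response genes 6 were higher and none was past 2-fold, with a median of 0.32 that was 0.07 among trio-positive nuclei. Fkbp5 was at 1.17 (0.855 to 1.62) and Zbtb16 at 1.21 (0.806 to 1.83) times the WT level, both within counting error, and Klf9 at 1.92 (1.12 to 3.43). Heat shock genes were higher in 2 of 8 (median -0.31), and SIK pathway genes in 6 of 10 with none past 2-fold (0.15). Of 9 measured endothelial markers 7 were lower and 5 past 2-fold lower (median -1.23), beside the 6 WT and 4 Ex13del nuclei that passed on endothelial markers. Their part in the other differences was not tested.

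The AAV SIK3 WT library was compared with ad lib sleep because no library received a virus without SIK3, and it shares the ad lib sleep library with the comparison above. All 8 measured endothelial markers, 5 of 7 basement membrane genes and Fkbp5 were higher in the WT library over all nuclei, and Slc47a1, Mgp and Igfbp5 were lower. Of 3133 genes, 219 (6.99%) were 2-fold or more higher and 233 (7.44%) lower, 51.4% and 48.6% were higher and lower by any size, and the median over all genes was 0.02. Of the endothelial markers 6 were past 2-fold higher (median 1.74), and Flt1, the receptor that is part of the rule, was at 5.27 times. The WT library also had 6 of the 15 mixed-marker nuclei with endothelial genes.

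Slc47a1 was at 0.198 (0.139 to 0.276) of the ad lib sleep level, at 0.982 (0.542 to 1.79) in trio-positive and 0.224 in trio-negative nuclei. Mgp was at 0.262, and its log2 ratio was -1.99 in trio-positive and -0.97 in trio-negative nuclei, so it was lower in both kinds. Igfbp5 was at 0.266, and its log2 ratio was 0.11 among trio-positive nuclei. Of 15 transcription factors 4 were higher, with 2 past 2-fold each way and a median of -0.44, which was 0.69 among trio-positive nuclei and -0.56 without mixed markers. Slc47a2 had 46 UMIs in ad lib sleep and 2 in WT nuclei, and it was among the 5 lowest ratios with Erc2, which had 1690 against 182 CPM.

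Lama1 was 2.80 (1.69 to 4.78) times as high in the WT library, with a log2 ratio of 0.75 in trio-positive nuclei, the kind in which all its UMIs lay. Basement membrane genes were higher in 5 of 7, with 2 past 2-fold (median 0.75). Ptgds was at 0.744 (0.682 to 0.812) over all nuclei, at 0.453 in trio-positive nuclei, at 1.12 (0.972 to 1.29) in those without mixed markers and at 2.31 (1.64 to 3.23) in trio-negative nuclei. Its direction therefore turned with the nuclei counted. Without the nucleus with the most Ptgds UMIs in each library the ratio was 1.38 (1.24 to 1.54) over all nuclei, 0.854 (0.759 to 0.961) in trio-positive and 0.491 (0.174 to 1.12) in trio-negative nuclei.

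Of 6 measured glucocorticoid response genes 3 were higher, 2 past 2-fold each way (median -0.10). The median was 0.38 among trio-positive nuclei, and the list was higher in 11 of 13 genes in endothelial-class nuclei (0.52) and 14 of 18 in astrocyte-class nuclei (0.20), where 51% and 48.2% of all genes were higher. Fkbp5 was 2.66 (1.72 to 4.18) times as high over all nuclei, 7.25 (3.12 to 20.7) times in trio-positive nuclei and 1.86 (0.857 to 3.79) times in trio-negative nuclei. Zbtb16 was 2.82 (1.59 to 5.16) times as high over all nuclei and 29.3 (4.92 to 1189) times in trio-positive nuclei, against a single ad lib sleep UMI. Of the 35 WT UMIs in trio-positive nuclei 22 came from 1 nucleus, so both ratios lean on it. Klf9 was lower over all nuclei, at 0.483 (0.270 to 0.828). Within trio-positive and trio-negative nuclei Klf9 was at 0.547 (0.279 to 1.05) and 0.299 (0.0345 to 1.18), each within counting error. The ad lib sleep value of Fkbp5 and Zbtb16 in trio-positive nuclei is thus the low one in both comparisons that use it.

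**Figure D5:**
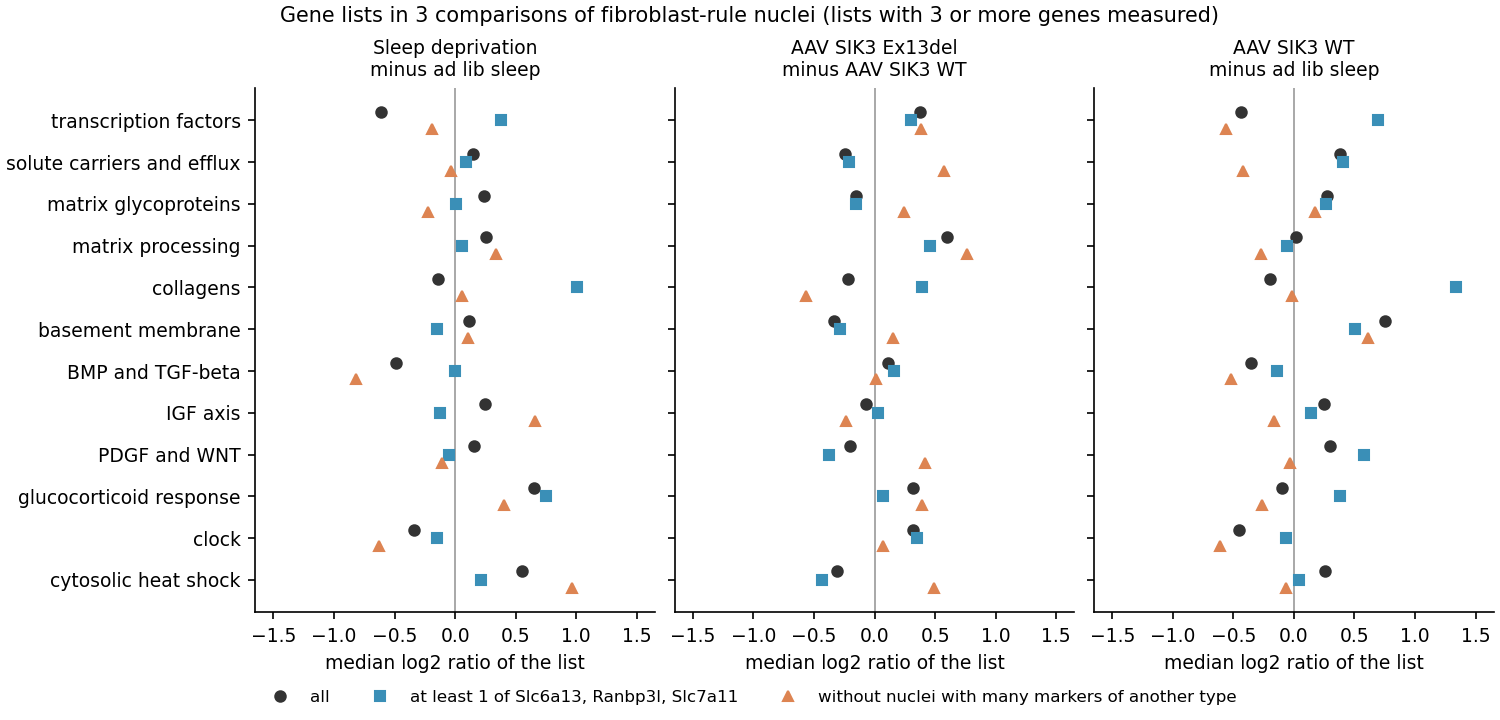
Median log2 ratio of 12 gene lists in the 3 comparisons (horizontal axis, log2 ratio of CPM + 10; circles all fibroblast-rule nuclei, squares trio-positive nuclei, triangles without mixed-marker nuclei; lists with 3 or more measured genes). Sleep deprivation and AAV SIK3 WT share the ad lib sleep library; in both, transcription factors lie below 0 over all nuclei, at -0.61 and -0.44, and above 0 in trio-positive nuclei, at 0.38 and 0.69.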

How the data were processed

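Single-nucleus libraries were made with a droplet 3′ kit, per the labels' protocols. The authors deposited raw UMI counts per gene and barcode for each library, which the submitters' processing notes tie to Cell Ranger 6.1.2 and to the mm10 genome. Whether intronic reads were counted is not given in the sources used here. Nuclei were filtered and chosen by the rule above. The members, the marker lists and the gene lists were chosen with earlier results of these data known. Counts were summed per library and kind and scaled to CPM (Python 3.11.15, numpy 2.4.6, scipy 1.17.1, pandas 2.3.3), with exact Poisson limits, exact limits of a ratio of 2 counts, and Clopper-Pearson limits of shares. Between libraries a gene was measured with 20 UMIs over both, and against other nuclei with 50 UMIs in the fibroblast-rule nuclei. The log2 ratios used a pseudocount of 10 CPM. The scripts were tested on simulated data. Genes named are the 8 rule genes, the 25 with the highest lowest-of-4 ratios, the 5 highest and 5 lowest per comparison with 30 UMIs, up to 4 of each list, glucocorticoid genes with 10 UMIs, and Sik3 and the vector. Gene positions are from GENCODE vM21 (mm10). Some genes that this rule names are not reported here.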

Additional observations from a re-analysis of the deposited data

How the results depend on the processing

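No paired analysis was possible because each group has 1 library, and no replicate could be left out. The alternatives that leave out mixed-marker nuclei, nuclei above 30000 UMIs, either kind, the 13 nuclei that entered with Ranbp3l and Slc7a11 or the nuclei with the most Ptgds UMIs, or that weight nuclei equally, were chosen after seeing the data. Counts are of genes 2-fold or more higher and lower, and medians are of the glucocorticoid list. The comparisons are sleep deprivation minus ad lib sleep (a), Ex13del minus WT (b) and WT minus ad lib sleep (c). With 4 or more rule genes the shares were 0.134%, 0.250%, 0.149% and 0.241%, (a) had 134 lower, a median of 1.20, and a log2 ratio of -0.19 for Mbp, and (c) had 120 and 124, with 0.22 for Slc4a10. With no UMI of the 6 exclusion genes the shares were 0.123%, 0.107%, 0.0446% and 0.172%. There (a) had 101 and 92 (median -0.58), (b) 78 and 24 (0.72) and (c) 36 and 124 (Cped1 0.069, Klf9 0.024). Without mixed-marker nuclei the shares were 0.250% for sleep deprivation and 0.275% for Ex13del, (a) had 192 higher, (b) 120 higher, and 370 genes were higher in all 4 libraries. In trio-positive nuclei, (a) gave 0.11 for Slc47a1, 0.10 for Slc26a7 and 0.29 for Slc4a10. There (c) had 152 lower and a median of 0.38, with 0.77 for Tbx15, 0.11 for Igfbp5, 0.43 for Slc26a7, 1.20 for Slc4a10 and 0.38 for Tsc22d3. In trio-negative nuclei, (a) had 136 higher (median 0.12), (b) 65 and 29 (0.95) and (c) 95 higher (-1.04, Zbtb16 -0.10). With nuclei weighted equally, (a) had 370 lower, (b) 299 and 255, and the median of (c) was 0.39. Thinned to 1000 UMIs, (a) had 30 and 37 (median -0.22), (b) 24 and 26, (c) 31 and 42 (Acta2 0.66), and 49 genes were higher in all 4. With a minimum of 1 UMI the counts were 1414 and 1304, 1912 and 1489, and 1709 and 1924, and with 50 UMIs 115 and 76, 46 and 28, and 54 and 69, where fewer genes are tested. The cause of the other changes was not tested. A minimum of 1000 detected genes, edgeR 4.0.16 TMM factors, a pseudocount of 1 CPM and leaving out nuclei above 30000 UMIs or the 13 nuclei reversed no value and moved no count by over 1.5 times. Depth limits single genes: 3 UMIs are 19.9, 11.2, 27.3 and 18.1 CPM.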
